A study of Mus musculus with 30 samples.

Results

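Astrocytes are the star-shaped glia of the cortex. They clear glutamate and potassium, hold water channels at their endfeet on vessels, and are joined into a network by gap junctions. They are recognised by a small set of transcripts, and some of these, Gfap above all, are known to rise when astrocytes become reactive. The 9 astrocyte marker transcripts described here are Gfap, Aqp4, Aldh1l1, S100b, Gja1, Gjb6, Aldoc, Sox9 and Fgfr3. They were picked by gene symbol from a table of 23993 genes, and all 9 symbols were found.

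The table holds RNA-seq of tdTomato-positive cells sorted from the medial prefrontal cortex (mPFC) of mice. The mice were heterozygous for the Ai9 tdTomato reporter and for Sst-Cre or Pvalb-Cre, so that every cell that has expressed the Cre driver is marked. Their strain label is C57BL/6, and the study's methods give an age of 6 to 12 weeks for all groups. Non-stressed controls comprised 7 libraries from female Sst mice, 7 from male Sst mice and 7 from male Pvalb mice. A further 3 libraries came from male Sst mice exposed to chronic unpredictable stress (CUS) for 14 days. The labels list 6 more libraries, from 1 non-stressed Pvalb female, 3 stressed Sst females and 2 stressed Pvalb females, which were not analysed here. The labels do not say whether a library is 1 mouse or a pool, so the spread between libraries may be partly technical.

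All values are in FPKM, the fragments assigned to a gene per kilobase of its transcript relative to the library's mapped fragments, so that levels of different genes can be set side by side. Values of SST0-M matched those of SST1-M almost exactly, and those of PV0-M matched PV2-M, so each pair was averaged into 1 sample, for 22 samples in all. Male Sst controls carry titles of different kinds. Those of SST0-M with SST1-M, SST3-M and SST4-M hold a running number (numbered titles, with which SST-F and the Pvalb titles are grouped). SST040241L, SST04241LL and SS04031R have long date-like titles, shared in kind with the 3 CUS libraries (dated titles). The 9 transcripts summed to 433 to 1813 FPKM per library, against 3.20 to 68.7 FPKM for 10 interneuron genes and 2630 to 9473 FPKM for 12 microglia genes. The interneuron marker Sst was listed at 0 in SS04031R. Small nucleolar and Cajal body RNAs made up 53.5% to 75.7% of all FPKM in the dated libraries and 1.87% to 8.29% in the numbered ones. The male-labelled libraries PV1-M, PV4-M and PV5-M held 300.2 to 333 FPKM of Xist, the transcript of the inactive X chromosome. PV3-M and PV6-M held 6.64 and 5.12 FPKM, against 0 to 0.446 FPKM in the other male-labelled libraries.

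Every member was above 0.4 FPKM, the limit used by the study for an expressed gene, in all 24 libraries, and all 9 entered each test. Aldoc, the brain form of the glycolytic enzyme aldolase, was the most abundant member, with a median of 527 FPKM over the 22 samples. Gja1 (connexin 43, a gap junction protein of astrocytes) had a median of 158 FPKM. Fgfr3, a receptor for fibroblast growth factors, had a median of 91.1 FPKM, and Aqp4, the water channel of the endfeet, 65.9 FPKM. Sox9, a transcription factor found in nearly all mature cortical astrocytes, had a median of 60.1 FPKM and Gjb6 (connexin 30) one of 53.8 FPKM. Aldh1l1, a folate enzyme much used as a pan-astrocyte marker, and S100b, a small calcium-binding protein, lay at 32.4 and 31.3 FPKM. Gfap, the intermediate filament of reactive and white matter astrocytes, was the lowest at 6.04 FPKM. It was also the most variable, with its highest sample 32.5 times its lowest, while the other 8 spanned 3.32 times (Aldh1l1) to 12.4 times (S100b).

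Positions of the members were read from RefSeq on GRCm38.p6, the assembly also known as mm10. Gfap (chr11:102887336-102897200), Aldoc (chr11:78323073-78327781) and Sox9 (chr11:112782210-112787757) share chromosome 11 at a distance from each other. S100b (chr10:76253836-76261319) and Gja1 (chr10:56377300-56390419) lie on chromosome 10. Gjb6 is at chr14:57123301-57133611, Aldh1l1 at chr6:90550768-90599171 and Fgfr3 at chr5:33721724-33737068. All 9 are protein-coding, and no gene of the table overlaps them. The 250 bases before the transcription start are shown for Gfap, which stood apart after CUS, and for S100b, Gja1 and Gjb6, whose levels or ratio divided the title kinds, from RefSeq on GRCm38.p6, 5′ to 3′ on the strand of the gene. Capitals mark the half-site of nuclear factor I, a factor known from astrocyte differentiation, searched as TTGGC on both strands.
Gfap, chr11:102897201-102897450, minus strand: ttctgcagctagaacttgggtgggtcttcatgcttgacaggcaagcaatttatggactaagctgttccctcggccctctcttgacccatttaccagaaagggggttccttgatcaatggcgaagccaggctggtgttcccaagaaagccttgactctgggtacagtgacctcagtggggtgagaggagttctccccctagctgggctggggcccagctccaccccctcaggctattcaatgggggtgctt
S100b, chr10:76253586-76253835, plus strand: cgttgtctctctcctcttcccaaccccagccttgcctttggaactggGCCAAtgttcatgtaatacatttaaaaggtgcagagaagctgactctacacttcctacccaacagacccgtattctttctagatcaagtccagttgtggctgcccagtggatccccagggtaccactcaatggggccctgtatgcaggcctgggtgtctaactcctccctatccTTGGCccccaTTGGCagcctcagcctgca
Gja1, chr10:56377050-56377299, plus strand: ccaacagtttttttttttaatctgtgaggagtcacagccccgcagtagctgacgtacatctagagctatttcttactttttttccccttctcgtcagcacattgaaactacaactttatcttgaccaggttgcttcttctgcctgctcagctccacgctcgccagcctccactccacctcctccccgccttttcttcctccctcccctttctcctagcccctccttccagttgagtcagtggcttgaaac
Gjb6, chr14:57133612-57133861, minus strand: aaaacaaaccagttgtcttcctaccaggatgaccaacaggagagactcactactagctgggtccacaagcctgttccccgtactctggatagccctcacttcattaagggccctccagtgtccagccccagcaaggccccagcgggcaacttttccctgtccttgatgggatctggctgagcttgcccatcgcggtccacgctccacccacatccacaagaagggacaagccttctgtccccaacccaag

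S100b held 3 half-sites, 2 of them close together near the start, and Gfap, Gja1 and Gjb6 held none in this window. The letters TTGGC occur on either strand in 41.5% of the 32851 windows of this length, so a match is common. A STAT site (TTCNNNGAA, in 7.02% of windows) and the SOX core (ACAAT, in 27.7% of windows) were searched too, and none of the 4 windows held either.

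**Figure D1:**
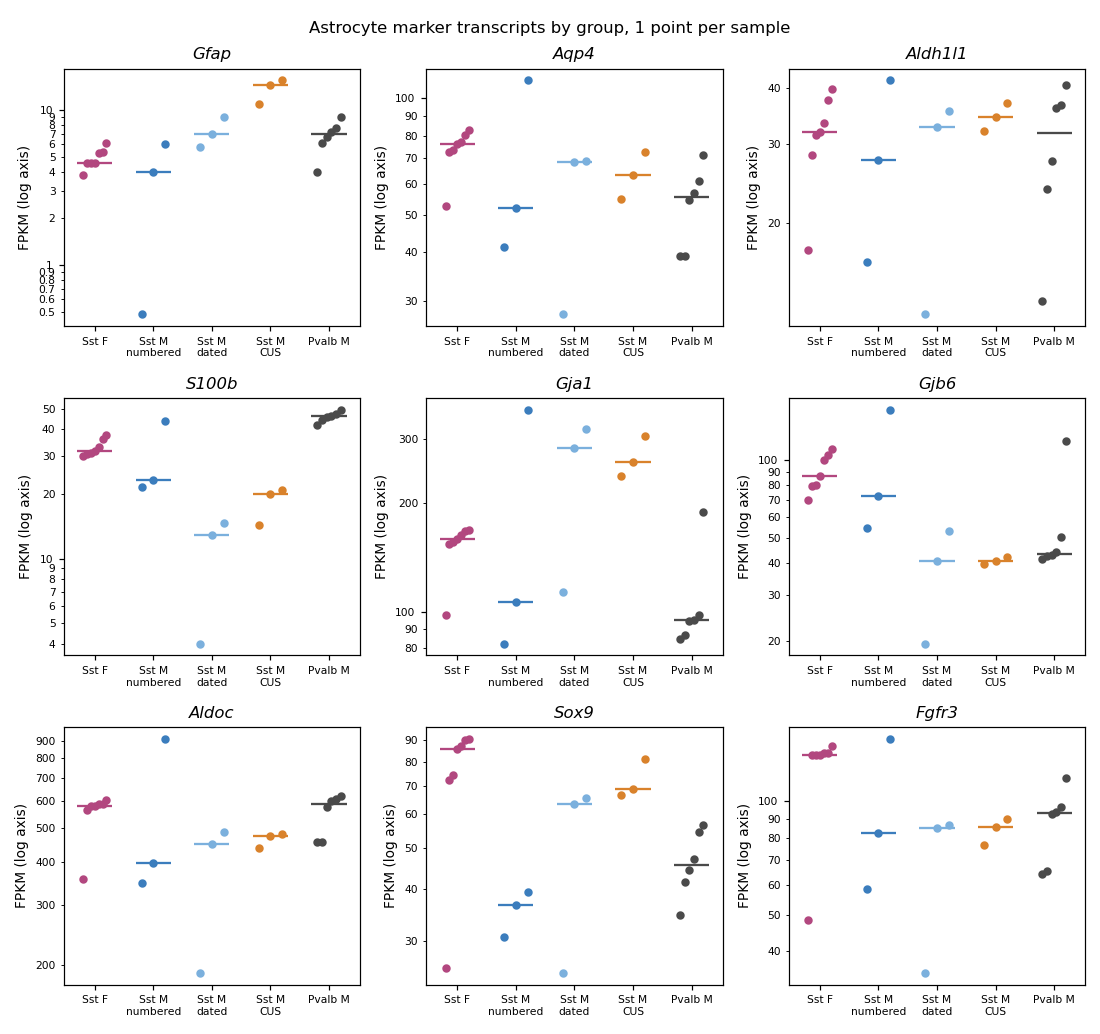
FPKM on a log axis for each of the 9 transcripts, with 1 point per sample and a line at the group's median. Sst F are female controls (n = 7), Sst M numbered and dated are male controls by kind of title (n = 3 each), Sst M CUS are stressed males (n = 3) and Pvalb M are control males (n = 6). Gfap in CUS samples, from 10.9 to 15.6 FPKM, lay above every other sample, and 1 low female sample, SST-F, stands apart in most panels.

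A few libraries stood apart across most members. SST-F was the lowest of the 7 female samples for 8 of the 9 transcripts and the highest for Gfap. SS04031R was the lowest of the 3 dated male controls for all 9, with an astrocyte sum of 433 FPKM against 1048 and 1135 FPKM in the other dated controls. The averaged pair of SST0-M and SST1-M was the highest of the 3 numbered male samples for 8 members and the lowest for Gfap, at 0.479 FPKM. The averaged pair of PV0-M and PV2-M was the highest Pvalb sample for 4 members and the lowest for Aldh1l1. Markers of other cells differed in some of the same libraries. The 12 microglia genes summed to 6391 FPKM in SST-F against 3534 to 4750 FPKM in the other female libraries, and to 7209 FPKM in SS04031R against 3288 and 3587 FPKM in the other dated controls. In SST0-M and SST1-M the sum was 7052 and 7071 FPKM, between 5677 FPKM in SST4-M and 9331 FPKM in SST3-M. SST-F also held 183 FPKM of 5 pan-neuronal genes (32.0 to 43.0 FPKM in the other females), 68.7 FPKM of the interneuron genes (9.01 to 24.6 FPKM) and 228 FPKM of 3 excitatory neuron genes (42.2 to 55.8 FPKM). PV0-M and PV2-M held 22.7 and 22.9 FPKM of the excitatory genes (459.8 to 519.9 FPKM in the other Pvalb libraries) and 109 FPKM each of 7 endothelial genes (10.5 to 15.5 FPKM). The part of these markers in the astrocyte values was not tested. In sorted bulk samples, fewer cells of a type and less RNA per cell cannot be told apart.

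**Figure D2:**
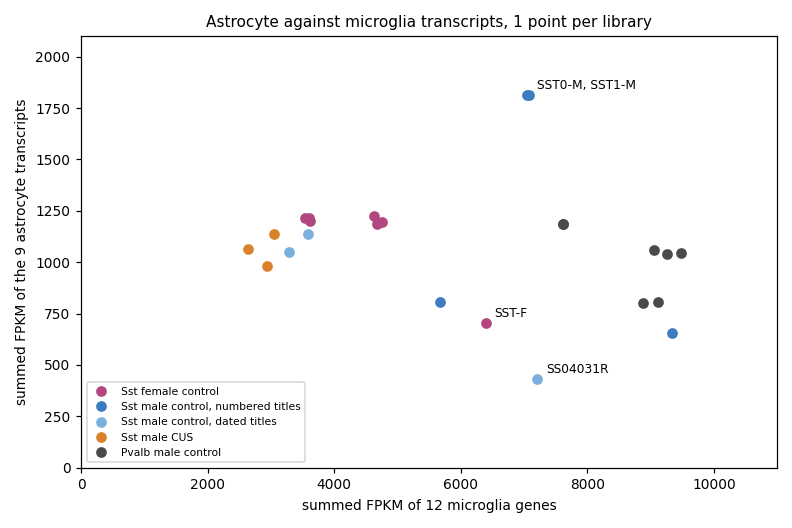
Summed FPKM of the 9 astrocyte transcripts (vertical axis) against summed FPKM of 12 microglia genes (horizontal axis), 1 point per library, coloured by group. SST-F and SS04031R had low astrocyte and higher microglia sums than the rest of their groups, and SST0-M and SST1-M lay at the top, at 1813 and 1811 FPKM.

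The first comparison asked how the transcripts responded to CUS in male Sst mice. Gfap was 13.7 ± 2.43 FPKM (SD, n = 3) after CUS and 5.38 ± 2.92 FPKM (SD, n = 6) in male controls. The CUS samples read 10.9, 15.6 and 14.6 FPKM in SS04031LL, SS04031RL and SS04031RR. The dated controls read 5.75 FPKM in SS04031R, 9.07 FPKM in SST040241L and 6.99 FPKM in SST04241LL. The numbered controls read 0.479 FPKM in the averaged pair, 3.97 FPKM in SST3-M and 6.00 FPKM in SST4-M. Every CUS sample thus lay above every control, and the controls of both title kinds overlapped each other. The difference was 1.40 on the log2(FPKM + 1) scale (SE 0.53, 95% confidence interval 0.24 to 2.57), and it did not pass the test over all genes (limma adjusted p = 0.641).

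Sox9 showed the same separation with a smaller distance. The CUS samples held 81.3, 69.0 and 66.8 FPKM. The dated controls held 25.2 FPKM (SS04031R), 63.6 FPKM and 65.5 FPKM, and the numbered controls held 39.4 FPKM (the averaged pair), 30.6 FPKM and 36.6 FPKM. The lowest CUS sample and the highest control were only 66.8 and 65.5 FPKM, so the groups met without overlapping. The difference was 0.80 on the log2 scale (SE 0.33, 95% confidence interval 0.08 to 1.53), and limma's adjusted p was 0.641.

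With limma, none of the 9 members passed the adjusted threshold of 0.05 in this comparison, and 2 of them, Gfap and Sox9, had an unadjusted p under 0.05. Of the 14319 genes tested, 0.00698% were called, which is the single gene Slc1a2. Gfap and Sox9 were the 2 members whose CUS samples all lay above the controls, against 3.87% of all genes tested. The log2 difference was positive for 8 of the 9 members with a median of 0.17, beside a median of 0.018 over all genes. Without the low control SS04031R, 4 of 9 were positive and the median was -0.030. Gja1 differed by 0.57 (95% confidence interval -0.54 to 1.68) and Gjb6 by -0.41 (95% confidence interval -1.52 to 0.70). The intervals of Aqp4, Aldh1l1, S100b, Aldoc and Fgfr3 also included 0, with differences of 0.14 to 0.42.

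All CUS libraries have dated titles, so the 3 dated controls form the closest comparison. Of these controls only SS04031R shares the stem SS04031 with the CUS titles. Against them Gfap differed by 0.84 (SE 0.21, limma adjusted p = 0.647) and Sox9 by 0.60 (SE 0.36, limma adjusted p = 0.652). Both lay above every dated control, against 9.33% of genes. This follows from their lying above all male controls and is no separate result. No member was called, with 0.00705% called among all genes. Without SS04031R, the low control, in an alternative chosen after seeing the data, Gfap differed by 0.70 (SE 0.18, limma adjusted p = 0.249) and Sox9 by 0.16 (SE 0.10). Every CUS sample exceeded the 2 remaining controls for both, against 14.9% of genes, as it had to after exceeding all 3. The other 7 members then differed by between -0.18 and 0.37. That fit holds no control with the stem of the CUS titles, so stress and title stem cannot be told apart there.

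Against the numbered controls alone, 16.1% of all genes were called, and Sox9 was the 1 member among them, higher in CUS by 1.01 (SE 0.19, limma adjusted p = 0.019). Gfap differed by 1.97 there (SE 0.58, limma adjusted p = 0.0636). S100b and Gjb6 lay below the numbered controls in every CUS sample, by -0.61 and -1.04 on the log2 scale, against 21.4% of genes tested. These 2 transcripts also separated the dated from the numbered controls, as described below. Stress and title kind cannot be told apart in that contrast.

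Sums of markers of other cells also differed between CUS and control libraries, with overlap for the endothelial genes. The 9 oligodendrocyte genes summed to 1715 to 2102 FPKM in CUS libraries and to 425 to 1577 FPKM in the male controls. The 12 microglia genes summed to 2630 to 3054 FPKM after CUS and to 3288 to 9331 FPKM in controls. The 7 endothelial genes summed to 157 to 248 FPKM after CUS and to 17.2 to 233 FPKM in controls. With limma, none of these lists had a gene called, while 4, 6 and 3 of their genes had an unadjusted p under 0.05. Against the dated controls alone 0 were called, and 5, 0 and 1 had an unadjusted p under 0.05. The part of these lists in the Gfap and Sox9 values was not tested.

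**Figure D3:**
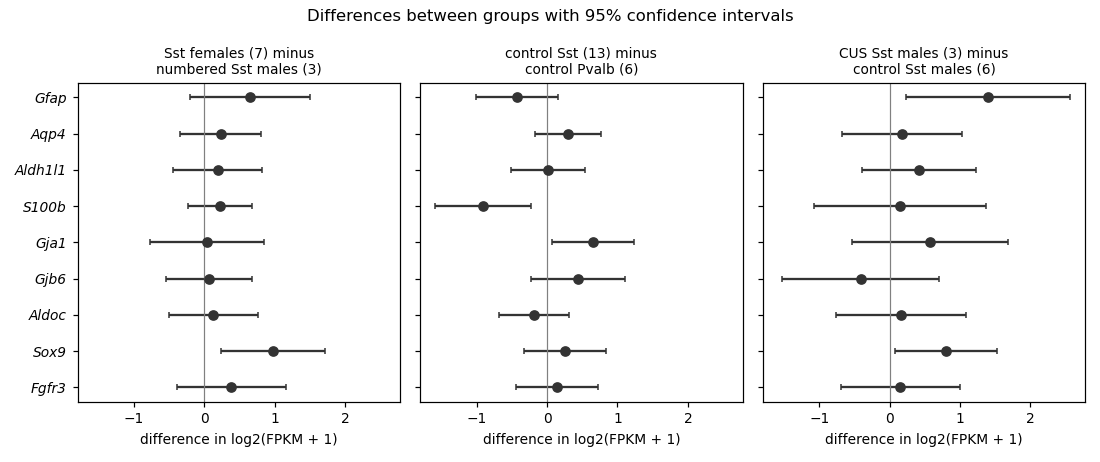
Difference in mean log2(FPKM + 1) for each member in the 3 comparisons, with 95% confidence intervals from limma. Numbers in brackets are samples. Most intervals include 0, and those of Gfap and Sox9 after CUS, Sox9 between the sexes, and S100b and Gja1 between Sst and Pvalb do not, although none passed after adjustment over all genes.

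The second comparison set control females against control males of the Sst line, using the numbered males because no female title is date-like. Of the 7 female titles 6 hold a running number, and SST-F holds none. With limma, 0 of the 9 members passed and 1, Sox9, had an unadjusted p under 0.05, while 3.41% of the 14443 genes tested were called. All 9 differences were positive, meaning higher in females (7 after scaling to a common median, which turned Gja1 and Gjb6), with a median of 0.22 beside 0.054 over all genes. Count and median moved with single male samples: without SST3-M 4 were positive with a median of -0.062, and without the averaged pair 8 with a median of 0.56. With near-identical libraries kept apart, 6 were positive with a median of 0.034. Sox9 ranged from 25.9 FPKM in SST-F to 90.6 FPKM with a median of 85.6 FPKM in the 7 females. The numbered males held 30.6, 36.6 and 39.4 FPKM. Apart from SST-F, the females thus lay well above the numbered males. The difference was 0.97 (SE 0.34, 95% confidence interval 0.23 to 1.72, limma adjusted p = 0.117), and without SST-F it was 1.21 (limma adjusted p = 0.0022), in a fit where 12.4% of all genes were called. Sets of female libraries lay close together, as given with the processing, so SEs and p-values of the fits with females may be too small.

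The intervals of the other members were wide here, with a single high male sample and females that were close together apart from SST-F. Without SST-F, Fgfr3 spanned 133 to 141 FPKM in females. The males held 58.5 FPKM in SST3-M, 82.4 FPKM in SST4-M and 147 FPKM in the averaged pair. Aldoc was 568 to 606 FPKM in those 6 females, and 346, 397 and 912 FPKM in the males. For both genes SST3-M and SST4-M lay below the 6 females and the averaged pair above them. Leaving out SST-F and the averaged pair, an alternative chosen after seeing the data, gave 6 females and 2 males. SST-F was the lowest female and the averaged pair the highest numbered male for all members but Gfap. Leaving them out therefore raises these differences by construction, and the calls are no separate test. All members but Gfap were then higher in females, 8 of 9 called, with differences from 0.55 (S100b and Gjb6) to 1.28 (Sox9). In that fit 22.0% of all genes were called, among them 8 of 9 oligodendrocyte and 6 of 7 endothelial genes, which were higher, and 11 of 12 microglia genes, which were lower. The same 8 members were above both males in every female, against 18.7% of genes. Gfap differed by -0.06 (95% confidence interval -0.47 to 0.35).

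The choice of male controls mattered for S100b, Gjb6, Gfap and Sox9. Against the dated males only, 41.5% of all genes were called. S100b was higher in females by 1.72 (SE 0.28, limma adjusted p = 5.8e-04), Gjb6 was higher by 1.32 (SE 0.26, limma adjusted p = 0.0019) and Gfap was lower by -0.48 (SE 0.18, limma adjusted p = 0.047). Against all 6 male samples no member passed with limma, 2 had an unadjusted p under 0.05 (S100b and Sox9), and 11.7% of genes were called. Gja1 took opposite signs with the choice, 0.03 against numbered and -0.53 against dated males, and neither passed. Sox9 was not called against the dated males, which held 25.2 (SS04031R), 63.6 and 65.5 FPKM, beside 30.6 to 39.4 FPKM in the numbered ones. As a share of Aldoc it was 13.3% to 14.1% in dated males, within the 12.3% to 15.4% of the females other than SST-F. In numbered males the share was 4.32% to 9.22%.

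Microglia genes differed in the opposite direction in this comparison. Of 12 microglia genes tested against numbered males, 5 fell in females (C1qb, Csf1r, Cx3cr1, Itgam and Tyrobp). Cx3cr1, the fractalkine receptor of microglia, was 250.4 ± 73.1 FPKM (SD, n = 7) in females and 557 ± 144 FPKM (SD, n = 3) in numbered males. The whole list summed to 3534 to 6391 FPKM in female libraries and 5677 to 9331 FPKM in the numbered male ones. Among other lists, the endothelial gene Cldn5 (19.6 ± 3.24 against 4.48 ± 1.28 FPKM) and the myelin gene Mobp (65.6 ± 9.10 against 37.7 ± 10.7 FPKM) were higher in females. The part of these markers in the astrocyte values was not tested.

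The third comparison set the 13 control Sst samples against the 6 control Pvalb samples. With limma, 0 of the 9 members passed and 2 (S100b and Gja1) had an unadjusted p under 0.05, beside 7.80% of the 14524 genes tested that were called. S100b, which is also made by some oligodendrocytes and neurons, held an even level in Pvalb samples of 45.8 ± 2.64 FPKM (SD, n = 6), from 41.8 to 49.5 FPKM with a median of 46.0 FPKM. Control Sst samples ranged from 4.01 FPKM in SS04031R to 44.0 FPKM in the averaged pair, with a median of 30.6 FPKM. Only that averaged pair reached into the Pvalb range. The difference was -0.91 (SE 0.33, 95% confidence interval -1.60 to -0.23, limma adjusted p = 0.086).

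Among the Sst samples with numbered titles, S100b was lower than in Pvalb samples by -0.53 (SE 0.14, limma adjusted p = 0.025), the 1 member called where 10.2% of genes were. Against the 7 females alone, S100b was lower by -0.47 (SE 0.09, limma adjusted p = 0.0027) without overlap, against 3.19% of genes. In that fit Aqp4 (0.47), Gja1 (0.53) and Gjb6 (0.76) were higher in Sst females, 4 of 9 members in all, and 25.1% of genes were called. Sex and Cre line cannot be told apart there. Sets of female and of Pvalb libraries also lay close together, as given with the processing, so these SEs may be too small. Without both averaged pairs, SST-F and SS04031R, again chosen after seeing the data, S100b (-0.80), Gja1 (0.83) and Gjb6 (0.75) were called, beside 27.8% of genes. Without the 3 Pvalb libraries with Xist above 10 FPKM, no member passed with limma, 0 had an unadjusted p under 0.05, and 0.0964% of genes were called. That fit holds 3 Pvalb samples, among them PV3-M and PV6-M with 6.64 and 5.12 FPKM of Xist. Its S100b difference was -0.88 (95% confidence interval -1.84 to 0.09).

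The 2 connexins were close together in 5 of the 6 Pvalb samples. Gja1 was 84.4 to 98.5 FPKM in these and 189 FPKM in the averaged pair of PV0-M and PV2-M. Gjb6 was 41.6 to 50.2 FPKM in these and 119 FPKM in the pair. Over the 13 Sst samples Gja1 ran from 82.0 to 360.4 FPKM (median 159 FPKM) and Gjb6 from 19.5 to 156 FPKM (median 79.1 FPKM). Gja1 differed by 0.65 (95% confidence interval 0.07 to 1.23, limma adjusted p = 0.152). Aldh1l1 (0.01) and Fgfr3 (0.14) showed the smallest differences, with 95% confidence intervals of -0.51 to 0.53 and -0.44 to 0.72.

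Markers of other cells also differed between the Cre lines, with overlapping sums for endothelial and microglia genes. Of 7 endothelial genes 6 were higher in Sst samples, and the list summed to 10.5 to 109 FPKM in Pvalb libraries and to 17.2 to 233 FPKM in control Sst ones. The excitatory genes Camk2a and Slc17a7 were lower in Sst samples, as were the neuronal genes Snap25 and Rbfox3. So were the genes that name the lines: Sst was 9.24 ± 13.4 FPKM (SD, n = 13) in Sst and 23.3 ± 7.45 FPKM (SD, n = 6) in Pvalb samples (limma adjusted p = 0.049), against the label, and Pvalb was 0.373 ± 0.62 against 2.64 ± 1.43 FPKM. With limma, 0 endothelial, pan-neuronal and excitatory genes passed without the 3 high-Xist Pvalb libraries (7, 2 and 1 had an unadjusted p under 0.05) or with male Sst samples only (5, 3 and 3). The 12 microglia genes summed to 7614 to 9473 FPKM in Pvalb libraries and to 3288 to 9331 FPKM in control Sst ones. Their part in the S100b and connexin values was not tested.

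The kind of title also divided the male controls for some members. S100b was 10.5 ± 5.72 FPKM (SD, n = 3) in dated and 29.6 ± 12.5 FPKM (SD, n = 3) in numbered male controls, with the values 4.01, 14.7 and 12.9 FPKM against 44.0, 21.7 and 23.1 FPKM. Gjb6 was 19.5, 40.7 and 53.2 FPKM in dated and 156, 54.4 and 72.5 FPKM in numbered controls. Each dated sample lay below each numbered one for both genes, against 17.0% of genes tested. Sox9 overlapped, at 25.2, 63.6 and 65.5 FPKM in dated and 39.4, 30.6 and 36.6 FPKM in numbered controls. Of the 9 members 0 passed with limma and 2 (S100b and Gjb6) had an unadjusted p under 0.05, beside 4.11% of genes called. The differences were -1.50 (SE 0.50) for S100b and -1.26 (SE 0.50) for Gjb6, both with a limma adjusted p above 0.1 (0.13 and 0.185).

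Ratios of 2 transcripts within a sample do not depend on how libraries were scaled against each other. Gja1 stood at 5.83 to 6.96 times Gjb6 in the 3 dated controls and at 5.97 to 7.51 times in the 3 CUS samples. In numbered samples it stood at 1.40 to 2.12 times in 7 Sst females, 1.47 to 2.31 times in 3 Sst males and 1.59 to 2.32 times in 6 Pvalb males. No dated sample came near a numbered one, while the ranges of the sexes and Cre lines overlapped among the numbered samples and those of stressed and control samples among the dated ones. SS04031R, with low levels of both connexins, had the same high ratio of 5.83 as its title group.

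S100b as a share of Aldoc was 2.11% to 3.25% in dated controls, 2.96% to 4.52% in CUS, 4.82% to 8.46% in numbered Sst samples and 7.26% to 9.99% in Pvalb samples. Gfap as a share of Aldoc was 2.27% to 3.32% after CUS. The dated controls gave 1.44%, 2.01% and 3.03%, and the last of these, SS04031R, lay inside the CUS range. Relative to Aldoc, Gfap therefore overlapped between stressed and control samples although its FPKM did not. Sox9 as a share of Aldoc was 14.5% to 16.8% after CUS and 13.3% to 14.1% in dated controls, without overlap. How often other ratios separate these groups was not computed. In FPKM, 9.33% of genes lay above every dated control in all CUS samples. In numbered samples Sox9 as a share of Aldoc was 12.3% to 15.4% in 6 females, and 4.32% to 9.70% in SST-F and all numbered Sst and Pvalb males. Among the shares of Aldoc, those of Aqp4 (8.57% to 15.1%) and Fgfr3 (13.6% to 23.4%) varied least over the 22 samples.

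**Figure D4:**
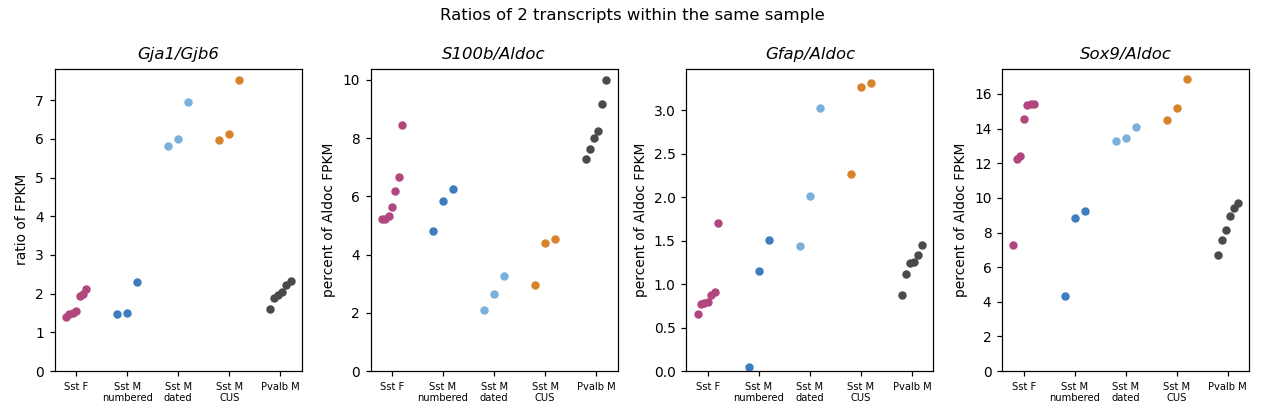
FPKM of Gja1 divided by that of Gjb6, and FPKM of S100b, Gfap and Sox9 as percent of Aldoc, within each sample, 1 point per sample, with groups as in the plot of FPKM by group. The Gja1 to Gjb6 ratio was 5.83 to 7.51 in all 6 samples with dated titles and at most 2.32 in the 16 with numbered ones.

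Ordered by mean over the 5 groups, the members followed different sequences. Gfap was highest after CUS, then in dated controls, Pvalb, Sst females and numbered Sst males, and only the step from CUS to dated controls was free of overlap. S100b was highest in Pvalb, then in Sst females, numbered males, CUS and dated controls. Its neighbours did not overlap between Pvalb and females or between numbered males and CUS. Sox9 was highest in Sst females, then CUS, dated controls, Pvalb and numbered males, and CUS and dated controls did not overlap. Of all genes tested, 9.33% lay above every dated control in all CUS samples. Those below every numbered male in all CUS samples were 21.4%, and those below every Pvalb sample in all Sst females 3.19%. For Aqp4, Aldh1l1, Gja1, Gjb6, Aldoc and Fgfr3, each group overlapped with its neighbours in the order.

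Members varied together to unequal degrees. Over the 16 numbered samples Pearson's r of log2(FPKM + 1) was 0.92 for Aqp4 with Gja1 (Spearman's rho 0.84), 0.91 for Gja1 with Gjb6 (rho 0.84) and 0.89 for Aqp4 with Fgfr3 (rho 0.95). Gfap went the other way, with r of -0.67 with Gja1 and rho of only -0.24, and the averaged pair of SST0-M and SST1-M had the highest Gja1 and the lowest Gfap. S100b was nearly unrelated to the membrane proteins, with r of 0.11 with Aqp4 and 0.10 with Gja1. These are descriptions over samples of several groups.

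The non-member genes most like each member, among 9254 genes with a mean above 5 FPKM in the same 16 samples, were partly other astrocyte genes. For Aqp4 they were Scara3 and Fermt2 (r 0.97 for both). For Gja1 they were Kcnk1, S1pr1 and Cnp (r 0.97 to 0.98), of which Cnp is on the oligodendrocyte list. For Fgfr3 they were Fgfrl1, Fat1 and Hey1 (r 0.95 to 0.96). Aldoc was followed by Pcdh10, Ntsr2 and Slc22a17 (r 0.94 to 0.96), and S100b by Ssh3, Flot2 and Kcnj10 (r 0.83 to 0.89), the last an astrocytic potassium channel. For Gjb6 they were Atp2a2, Mxi1 and Xpr1 (r 0.96 to 0.97), for Sox9 Gpam, Pfkm and Ncam1 (r 0.94 to 0.95) and for Aldh1l1 Apba2, Tspyl2 and Map2k7 (r 0.92 to 0.94). Gfap was matched by Yaf2, Tysnd1 and Dlst (r 0.95 to 0.96, rho 0.79 to 0.84), in a ranking that includes its very low value in the averaged pair.

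A wider set of 39 astrocyte genes gave the setting for the 9 members. Its most abundant genes were Glul, glutamine synthetase, at a mean of 875 FPKM, and Apoe, the lipid carrier, at 844 FPKM over the libraries. After CUS 1 of 39 rose and 0 fell, with 26 positive differences and a median of 0.16. The 1 gene was Slc1a2, the main glutamate transporter of astrocytes. It read 851, 849 and 779 FPKM in the CUS libraries and 741 to 1038 FPKM in the Pvalb libraries, and was listed at 0 in all 14 control Sst libraries. An exact 0 in FPKM can be a failed estimate, and Slc1a3, the other astrocytic glutamate transporter, was present at 159 to 377 FPKM in every library. No fold change is given for Slc1a2.

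Between the sexes, 1 of 38 such genes tested rose in females and 0 fell. This was Slc14a1, a urea transporter, at 13.9 ± 1.81 FPKM (SD, n = 7) against 6.35 ± 2.77 FPKM (SD, n = 3), a difference of 1.09 (SE 0.23, limma adjusted p = 0.035). Altogether 34 of the 38 differences were positive, with a median of 0.40. Between Cre lines, 2 of 39 were higher in Sst samples and 1 (Slc1a2) was lower. Slc1a3 was 308 ± 77.9 FPKM (SD, n = 13) against 188 ± 46.9 FPKM (SD, n = 6), and Acsl6, an acyl-CoA synthetase, 124 ± 40.1 against 66.3 ± 8.88 FPKM. Neither of them passed without the high-Xist Pvalb libraries or with male Sst samples only. Between title kinds of the male controls, Apoe was higher in dated samples (1807 ± 636 against 430.4 ± 98.8 FPKM, SD, n = 3 each) and Ndrg2, a gene of mature astrocytes, was lower (130 ± 61.5 against 892 ± 302 FPKM).

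Of 12 genes known from reactive astrocytes, Vim, the filament protein that partners Gfap, was the most abundant at a mean of 18.7 FPKM, and Hspb1, a small heat shock protein, followed at 9.34 FPKM. After CUS 0 of the 10 tested passed with limma and 3 had an unadjusted p under 0.05, with 9 positive differences and a median of 0.46. The list summed to 61.7 to 90.8 FPKM in CUS libraries and to 13.7 to 66.1 FPKM in dated controls. Lcn2 and Timp1 were listed at 0 in every dated control and Timp1 in every CUS library. Between the sexes, 2 of 11 rose in females, Osmr (5.38 ± 1.40 against 1.27 ± 0.55 FPKM) and S1pr3 (6.38 ± 2.09 against 1.38 ± 0.62 FPKM). Between Cre lines, Vim (19.6 ± 8.60 against 6.47 ± 5.85 FPKM) and Hspb1 (9.48 ± 6.00 against 2.77 ± 4.19 FPKM) were the 2 of 11 that were higher in Sst samples, and 0 passed without the high-Xist Pvalb libraries or with male Sst samples only. Vim and Hspb1 are also made by endothelial and mural cells. Most endothelial genes listed were higher in Sst samples, with overlapping sums, as given above, and no mural genes were listed. The part of these cells in the Vim and Hspb1 values was not tested.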

How the data were processed

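What the authors deposited is FPKM, in a single table with 24 libraries as columns and 23993 gene symbols as lines. The study's methods give HISAT2 alignment to mm10 and StringTie quantification. A preceding sentence names mm9 and TopHat2, and the submitters' processing notes name TopHat2, Cufflinks and Cuffdiff. ComBat is named, but whether it was applied to these values is not stated. Reads per library are unknown from the table, so no counting interval is given.

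Near-identical libraries were averaged: the SD of their log2 ratios, over genes above 5 FPKM in both, was below 10% of the next smallest in the group (0.017 against 0.225 for PV0-M and PV2-M, 0.0212 against 0.267 for SST0-M and SST1-M). Other sets lay close together without meeting this limit and stayed separate samples. Within SST1-F, SST3-F and SST4-F the SD was 0.249 to 0.263, and within SST2-F, SST5-F and SST6-F 0.218 to 0.243. Between these sets it was 0.413 to 0.466. Within PV1-M, PV4-M and PV5-M it was 0.225 to 0.276, and 0.258 for PV3-M with PV6-M. Between these it was 0.560 to 0.606. SEs of fits with female or Pvalb samples may therefore be too small. Values were taken as log2(FPKM + 1), a scale that understates changes of low genes. For each comparison, limma 3.58.1 (R 4.3.3; lmFit, then eBayes with the trend and robust options) was run on all genes whose mean exceeded 0.4 FPKM in its samples. Tests were two-sided, p-values were adjusted by Benjamini-Hochberg across those genes, and 0.05 was the limit. The procedure was tested on simulated data. Python 3.11.15 with pandas 2.3.3 and matplotlib 3.10.9 served for the rest.

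Members and lists were chosen with earlier results of these data known. Genes named beside the members are those of a list past the threshold (at most 4 per list and comparison, by size), its 2 most abundant genes, and the 3 genes most like each member. Some genes that this rule names are not reported here. Alternatives were pseudocounts of 0.1 and 5, no filter, scaling to a common median, other control sets, title kind as a covariate, a block for the replicate number, near-identical libraries kept apart, and leaving out each sample.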

Additional observations from a re-analysis of the deposited data

Results flagged for a closer look

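A sample was singled out where its distance to the nearest other sample of its group was large beside the whole range of the group (Dixon's test at the 95% level, in groups of 4 to 10 samples). Chance alone does this in about 1 in 20 groups, and 7 of the 27 combinations of member and group tested were singled out. Of these, 5 concern the female sample SST-F, which was the lowest of 7. It held 52.7 FPKM of Aqp4 where the next female held 72.7 FPKM, and 98.1 FPKM of Gja1 where the next held 154 FPKM. Aldoc stood at 356.5 FPKM beside 568 FPKM, Sox9 at 25.9 FPKM beside 72.3 FPKM, and Fgfr3 at 48.4 FPKM beside 133 FPKM. The other 2 concern the averaged pair of PV0-M and PV2-M, the highest of 6 Pvalb samples, with 189 FPKM of Gja1 beside 98.5 FPKM and 119 FPKM of Gjb6 beside 50.2 FPKM.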

How the results depend on the processing

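Of 612 recomputed differences of single members, 535 kept their direction and their side of the threshold, 25 newly passed it and 52 changed sign. The members called higher in females were 0 to 1 with 1 sample left out (1 without SST-F and 1 without the averaged male pair, where 12.4% and 6.22% of all genes were called), 2 against dated males and 8 without SST-F and that pair, and those called lower were 1 against dated males. Members called higher in Sst than in Pvalb were 3 with Sst females only, 2 with the replicate block and 2 without the libraries that stand apart, and those called lower were 0 to 1 with 1 sample left out (S100b at -0.72 without SS04031R and -0.99 without the averaged male pair, where 10.1% and 13.2% of all genes were called), 1 with numbered titles, 1 with females only and 1 without the libraries that stand apart. For CUS, 1 was called higher against numbered controls. The signs that changed were of differences that did not pass in the comparison as first given, and in each case but 1 (Gfap against dated males) they did not pass afterwards either. The cause was not tested.

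Between the sexes, leaving out 1 sample gave -0.0149 to 1.11 for Gfap, -0.0617 to 0.64 for Aqp4, -0.15 to 0.50 for Aldh1l1, -0.38 to 0.68 for Gja1, -0.26 to 0.49 for Gjb6 and -0.14 to 0.56 for Aldoc. Gfap was -0.48 against dated males and -0.0614 without SST-F and the averaged pair. Scaling to a common median gave -0.0315 for Gja1 and -0.0026 for Gjb6. Gja1 was -0.25 against all males and -0.53 against dated males. With near-identical libraries kept apart, Gja1 was -0.29, Gjb6 -0.16 and Aldoc -0.0919. Between Cre lines, Aldh1l1 ran from -0.19 to 0.11 with 1 sample left out and was -0.12 with male Sst samples only and -0.0688 without the libraries that stand apart. Male Sst samples only also gave -0.16 for Sox9 and -0.19 for Fgfr3.

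After CUS, leaving out 1 sample gave -0.0299 to 0.36 for Aqp4, -0.21 to 0.42 for S100b, -0.0659 to 0.39 for Aldoc and -0.0676 to 0.34 for Fgfr3. Controls of both sexes gave -0.0304 for Aqp4, -0.38 for S100b, -0.0487 for Aldoc and -0.19 for Fgfr3. Numbered controls gave -0.61 for S100b, -0.10 for Aldoc and -0.0899 for Fgfr3. Dated controls without SS04031R gave -0.11 for Aqp4, -0.18 for Gja1, -0.0095 for Aldoc and -0.0342 for Fgfr3. Libraries kept apart gave -0.0538 for S100b and -0.0010 for Aldoc. Gjb6 was 0.22 against dated controls and 0.22 with title kind as a covariate.

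The deviations of same-numbered Sst female and male samples correlated at -0.015, -0.039 and -0.016 across genes, the first with the averaged male pair. So few pairs cannot settle whether shared replicate numbers mark pairs, and numbers shared between Cre lines were not checked. With the replicate block, Gja1 (0.67) and Gjb6 (0.85) were called between Cre lines, beside 9.93% of all genes, and Aldoc was 0.0572, and no member was called between the sexes. What depth limits cannot be stated, since the table gives no counts.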
